A study of Oryza sativa with 6 samples.

Results

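In rice roots that overexpress *OsMYB305*, 93 loci had transcript levels that stepped down as the level of the transgene stepped up. The level of *OsMYB305* was 150.2 and 148 FPKM in the roots of OE15, 81.3 and 80.2 FPKM in those of OE20 and 0.0388 and 0.0576 FPKM in those of WT. The 93 loci ran in the opposite order, lowest in OE15, intermediate in OE20 and highest in WT. FPKM, fragments per kilobase of transcript scaled to the mapped fragments of a library, is a level corrected for transcript length and library size. A locus was taken when its mean over the 6 libraries was at least 2 FPKM, when both OE15 values lay below both OE20 values and both OE20 values below both WT values, and when, with 0.1 FPKM added to each group mean, the OE15 mean was at most 80% of the OE20 mean and the OE20 mean at most 80% of the WT mean. The rule was met by these 93 of the 18300 loci that averaged 2 FPKM or more (0.508%), out of 55982 loci listed. *OsCSLF8* (LOC_Os07g36630) and *OsBC1* (LOC_Os03g30250) also met the rule but were left out by name. Because all 6 libraries were used to choose the loci, their levels and the differences between the genotypes are a description, with no test.

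OE15 and OE20 are 2 overexpression lines in the *japonica* cultivar ZH11, and WT is ZH11 without the transgene. In both lines the coding sequence of *OsMYB305* is driven by the CaMV 35S promoter, which is active in most cells of the plant, so its product is not limited to the cells that normally make it. The whole roots of 14-day-old seedlings grown in culture solution with 0.288 mM NH4NO3, the low N level of the study, were used for RNA-seq, with 2 libraries per genotype. Each level of *OsMYB305* is represented by 1 line, so the level of the transgene and any other feature of that line cannot be told apart. Nothing states that the 2 libraries of a genotype came from separate cultures, so p-values measure only the spread between these libraries, which may be technical.

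MYB proteins are transcription factors that bind DNA through conserved repeats and switch genes on or off, and many of them act on phenylpropanoid metabolism and on the building of the secondary wall in plants. Several families described here belong to other processes. Thionins are small, cysteine-rich peptides that damage the membranes of microbes, and ubiquitin, SKP1 and F-box proteins are parts of the system that tags proteins for breakdown by the proteasome. Expansins loosen the wall. Multicopper oxidases such as laccases can form the radicals from which lignin and lignans are made, and dirigent proteins steer the coupling of such radicals.

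The libraries differed little in depth and in the loci they detected. Relative depth, read from the steps between the lowest FPKM values of 961 loci, ran from 0.984 to 1.36 of that of WT replicate 1, and 46.4% to 47.8% of loci were listed at 0 in each library. Pearson correlations across loci of log2(FPKM + 0.1) were 0.984 to 0.988 within a genotype and 0.965 to 0.976 between genotypes, and loci are not independent replicates. The root transporters *OsNRT2.1*, *OsNRT2.2* and *OsNAR2.1* were present in every library. So were 3 transcripts annotated to chloroplast proteins, whose summed level was 56.1 and 55.4 FPKM in OE15, 52.5 and 51.3 FPKM in OE20 and 82.4 and 81.5 FPKM in WT. Each of these 3 had lower means in both lines than in WT and the lowest in OE20, an order that differs from that of the 93 loci. They were taken from the study's list of changed loci, drawn up on these libraries. A difference from WT thus follows from how they were picked, and nothing is read from it about tissue content. Their part in the levels described here was not tested.

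Together the 93 loci held 2547 and 2587 FPKM in OE15, 3562 and 3609 FPKM in OE20 and 5471 and 5752 FPKM in WT. These sums were 0.353% and 0.354% of all FPKM in OE15, 0.487% and 0.499% in OE20 and 0.769% and 0.802% in WT. The total in WT was thus 2.19 times that in OE15 and 1.57 times that in OE20. In samples of whole roots, fewer cells of a type and less RNA per cell cannot be told apart.

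The median log2 ratio of group means, each with 0.1 FPKM added, was −1.09 for OE15 against WT and −0.57 for OE20 against WT, and OE15 against OE20 had a median of −0.46. Over all 18300 loci the same medians were 0.022, 0.019 and 0.0037. One locus, LOC_Os07g38470, was listed at 0 in both OE15 libraries, so no fold is given for it in OE15. Among the other 92, the log2 ratio ran from −6.14 to −0.68 in OE15 against WT and from −4.80 to −0.33 in OE20 against WT. A level at least 2-fold lower than in WT was reached by 57 loci in OE15 and 19 in OE20, and one at least 8-fold lower by 10 loci in OE15 and 6 in OE20. Most of the loci were thus moderately lower in both lines and a small number strongly so, as the plot of the 93 loci by genotype shows.

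**Figure D1:**
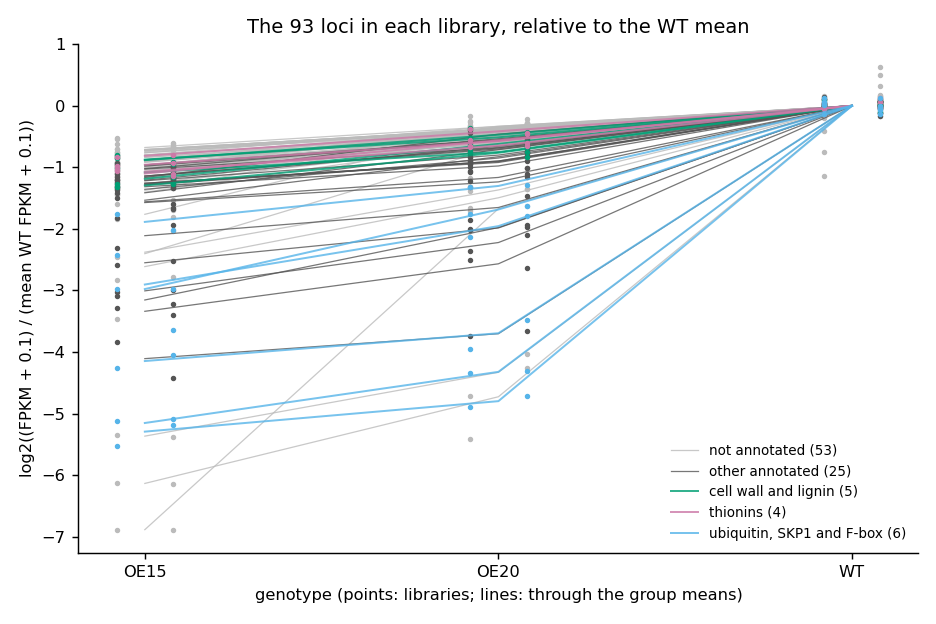
Level of each of the 93 loci in OE15, OE20 and WT, as log2 of FPKM + 0.1 relative to the WT mean + 0.1. Points are libraries and lines join the group means, coloured by annotation. Of the annotated groups, the ubiquitin, SKP1 and F-box loci have the lowest median (−3.56 in OE15 against WT), and the grey line that ends lowest in OE15 is LOC_Os07g38470, which was listed at 0 there.

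Taking a locus as called when its adjusted p by limma was under 0.05 and it changed by more than 1.5-fold, limma counted 93 of the 93 loci as lower in OE15 than in WT, where 2.59% of the 20627 loci tested were called lower. In OE20 against WT 39 of the 93 were called lower, with 1.64% of all loci tested. In OE15 against OE20 the count was 18 of the 93, with 0.863% of all loci tested. The rule used each of these contrasts, so nothing is read from the counts, and the contrasts of the 2 lines with WT share the WT libraries.

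The same rule applied in the rising direction found 119 loci (0.65% of the 18300), *OsMYB305* itself among them. No locus was left out by name there, and in the falling direction 95 loci met the rule when those left out by name are counted. With the lines exchanged, so that OE20 was lowest, OE15 intermediate and WT highest, the rule found 26 (0.142%). The order OE15 below OE20 below WT without any limit on the ratios was met by 1073 loci (5.86%). Of these, 978 fell short of a ratio, 94 at the WT and OE20 step alone, 154 at the OE20 and OE15 step alone and 730 at both. The 93 loci are thus the steeper part of a wider ordered group.

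**Figure D2:**
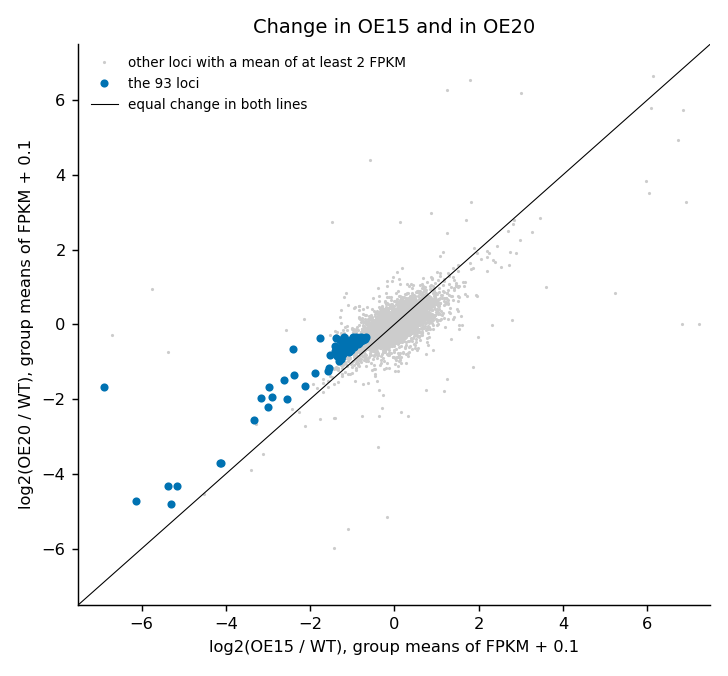
Change in OE15 (horizontal) and in OE20 (vertical) against WT, as log2 ratios of group means with 0.1 FPKM added, for loci that averaged 2 FPKM or more. The 93 loci (blue) all lie above the line of equal change on the falling side, as the rule requires, and 8 other loci and *OsMYB305* lie outside the axes. The leftmost blue point is LOC_Os07g38470, listed at 0 in OE15.

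How far OE20 had moved from WT on the way to OE15 was not fixed by the rule beyond its limits. The share of the fall in FPKM between WT and OE15 that was already present in OE20 had a median of 62.9% over the 93 loci, with quartiles of 56.9% and 75.8% and a range from 31.1% to 98.9%. The rise of *OsMYB305* in OE20 was 54.1% of that in OE15. Equal ratios at both steps already put OE20 past the midpoint in FPKM, so the share also depends on the scale. On the log2 scale it had a median of 54.4% over the 93 loci, with quartiles of 49.0% and 62.7%, and the rise of *OsMYB305* in OE20 was 91.1% of that in OE15. In 79 loci OE20 lay past the midpoint in FPKM, and in 67 the ratio was larger between WT and OE20 than between OE20 and OE15. The smallest ratio allowed at each step also bounds the share, more tightly for loci with small falls. These shares and counts are thus partly made by the selection.

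**Figure D3:**
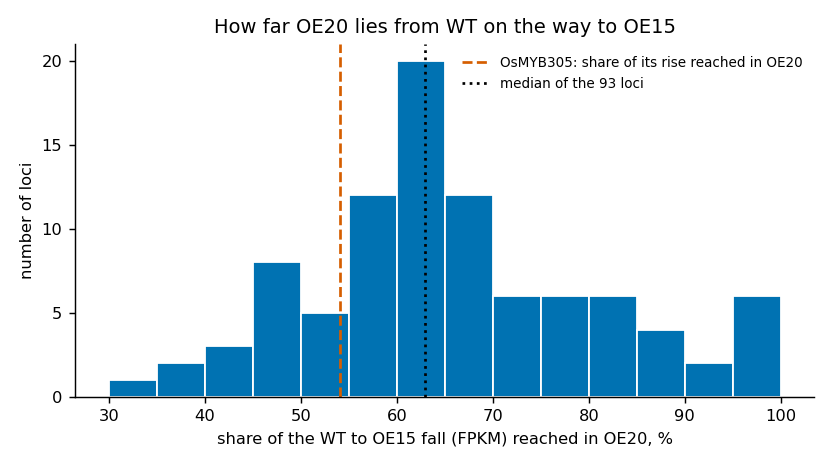
Number of loci by the share of the FPKM difference between WT and OE15 that was already present in OE20. The dotted line is the median of the 93 loci (62.9%) and the dashed line is the share of the rise of *OsMYB305* in OE15 that was reached in OE20 (54.1%). On the log2 scale, which is not plotted, these values are 54.4% and 91.1%.

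The 8 loci with more than 90% of the fall present in OE20 were 5.86-fold to 70.3-fold lower in OE15 than in WT, and 3.96-fold to 27.8-fold lower in OE20. In these, the last step was small in FPKM although OE15 was still 1.32-fold to 2.65-fold lower than OE20. At the other end, 14 loci had at most 50% of the fall in OE20, and only 1 of them was annotated. That locus was LOC_Os04g08350, chosen after its values were seen, which encodes a cysteine synthase of plastids, the enzyme that makes cysteine from O-acetylserine and sulfide. It was at 16.3 and 16.1 FPKM in OE15, 27.7 and 25.1 FPKM in OE20 and 36.0 and 36.8 FPKM in WT, so the 2 steps were of nearly equal size.

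Of the 93 loci, 40 carried an annotation in the list of changed loci that the study supplied, and 37 of these named a kind of protein. That list was drawn up on these libraries from loci with larger changes, so the annotated loci are not a random sample of the 93. Their median log2 ratio was −1.28 in OE15 and −0.84 in OE20 against WT, where the 53 loci without annotation had medians of −0.97 and −0.46. Grouped by words in the annotation, 6 belonged to ubiquitin, SKP1 and F-box proteins, 4 were thionins, 3 wall structure, 2 lignin and phenolic coupling, 3 oxidoreductases, 2 glutathione, 3 transport and 2 glycosyl transfer, with 1 locus in both the lignin and the oxidoreductase groups. No transcription factor, receptor kinase or terpenoid enzyme was among the annotated loci.

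**Figure D4:**
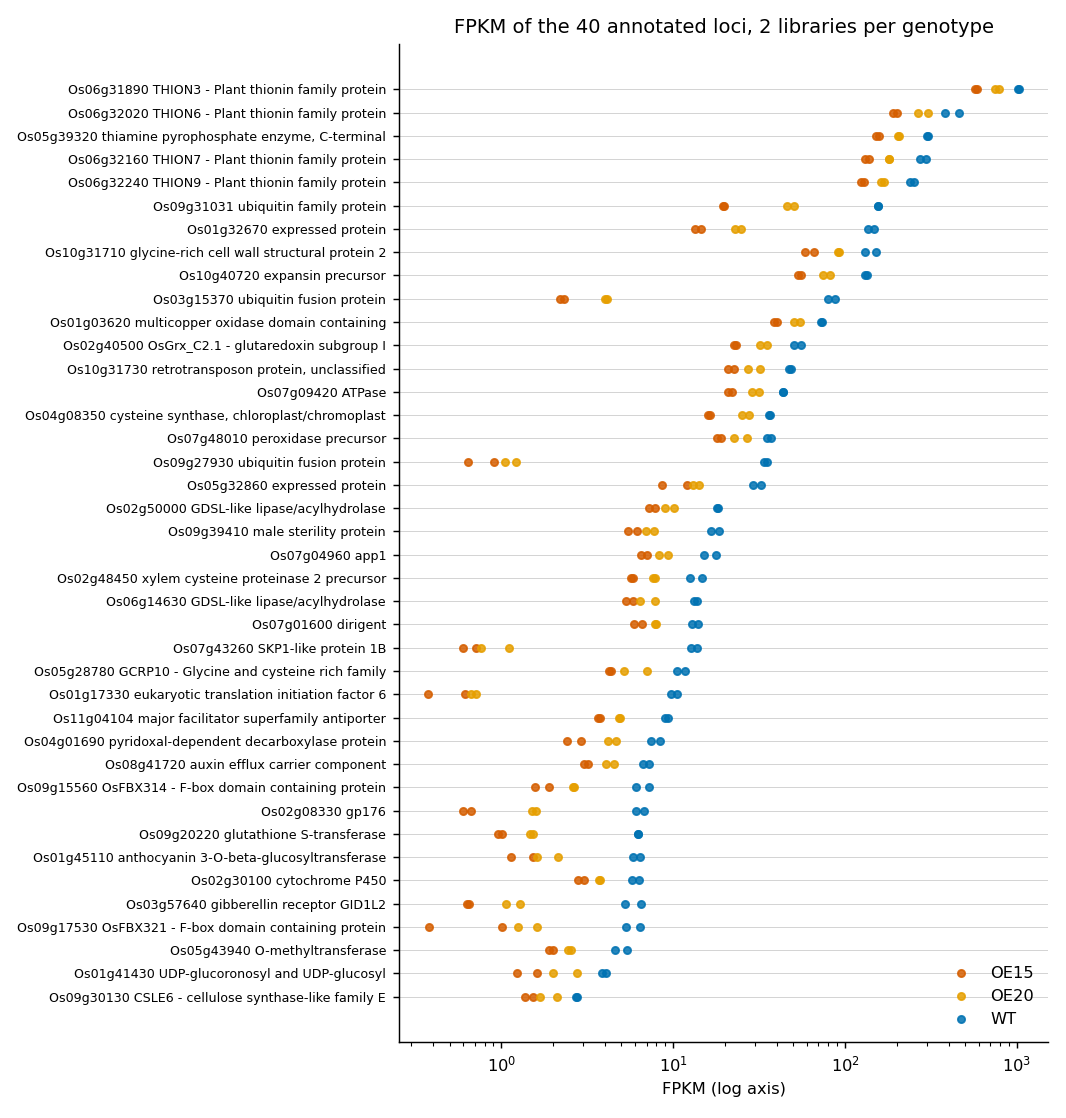
FPKM of the 40 annotated loci (log axis) in the 2 libraries each of OE15, OE20 and WT, in order of the WT mean. OE15 lies left of OE20 and OE20 left of WT in every row by the rule, and the widest gaps to WT are those of the ubiquitin fusion, SKP1-like and initiation factor loci.

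The ubiquitin, SKP1 and F-box group had the lowest median of the annotated groups. Its 6 loci had log2 ratios of −5.29 to −1.89 in OE15 against WT (median −3.56) and of −4.80 to −1.30 in OE20 against WT (median −2.82), where the medians of all 18300 loci were 0.022 and 0.019. LOC_Os09g27930 and LOC_Os03g15370 encode ubiquitin fusion proteins, in which ubiquitin is made as part of a longer chain and then cut free. LOC_Os09g27930 was at 0.642 and 0.909 FPKM in OE15, 1.06 and 1.21 FPKM in OE20 and 34.9 and 33.5 FPKM in WT, a log2 ratio of −5.29 in OE15 and −4.80 in OE20 against WT. LOC_Os03g15370 had 2.30 and 2.19 FPKM in OE15, 4.02 and 4.12 FPKM in OE20 and 86.8 and 79.9 FPKM in WT, and its log2 ratios against WT were −5.15 in OE15 and −4.32 in OE20. Both loci were thus nearly lost in both lines, and in FPKM the OE20 libraries lay much nearer to OE15 than to WT.

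LOC_Os09g31031, annotated as a ubiquitin family protein, stepped down more evenly. Its level was 19.6 and 19.6 FPKM in OE15, 46.0 and 50.3 FPKM in OE20 and 156 and 154 FPKM in WT, and the log2 ratio was −1.29 for OE15 against OE20. No OE library came near the WT libraries, and replicates within each genotype lay close together. The SKP1-like protein 1B of LOC_Os07g43260 is an adaptor that joins F-box proteins to the cullin of a ubiquitin ligase. It had 0.598 and 0.711 FPKM in OE15, 0.762 and 1.102 FPKM in OE20 and 13.8 and 12.8 FPKM in WT, a log2 ratio of −4.15 in OE15 and −3.69 in OE20 against WT. Its upper OE15 library and its lower OE20 library were close, so its order between the lines rests on a narrow gap.

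F-box proteins choose the substrates of such ligases. OsFBX321 (LOC_Os09g17530) was at 1.01 and 0.379 FPKM in OE15, 1.26 and 1.61 FPKM in OE20 and 5.32 and 6.38 FPKM in WT. Its OE15 libraries differed from each other more than those of OE20 did. OsFBX314 (LOC_Os09g15560) was at 1.89 and 1.57 FPKM in OE15, 2.62 and 2.66 FPKM in OE20 and 7.26 and 6.07 FPKM in WT, with log2 ratios against WT of −1.89 in OE15 and −1.30 in OE20. Ubiquitin genes share long stretches of near-identical sequence, and how reads that map to several loci were treated is not stated, so the values of these ubiquitin loci are uncertain.

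The highest WT means were those of the thionins THION3 and THION6, and LOC_Os05g39320, described further on, stood ahead of the thionins THION7 and THION9. THION3 (LOC_Os06g31890) was at 571 and 587 FPKM in OE15, 781 and 745 FPKM in OE20 and 1027 and 1007 FPKM in WT, with log2 ratios against WT of −0.81 in OE15 and −0.41 in OE20. THION6 (LOC_Os06g32020) was at 201 and 191 FPKM in OE15, 264 and 306 FPKM in OE20 and 384 and 458 FPKM in WT. Its WT libraries differed more than those of THION3. THION7 (LOC_Os06g32160) had 138 and 131 FPKM in OE15, 181 and 181 FPKM in OE20 and 273 and 294 FPKM in WT. THION9 (LOC_Os06g32240) had 124 and 129 FPKM in OE15, 167 and 162 FPKM in OE20 and 252 and 239 FPKM in WT. In both, replicates were close. The 4 thionins together held 1034 and 1038 FPKM in OE15, 1394 and 1394 FPKM in OE20 and 1935 and 1998 FPKM in WT, so the sum in WT was 1.90 times that in OE15 and 1.41 times that in OE20.

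These thionin loci lie in 1 part of chromosome 6. When loci in the list of the study were put in order of their MSU names, 8 of the 93 fell in a block of 42 listed loci, joined by gaps of at most 15 listed loci, a limit chosen after the values were seen. The block holds the 4 annotated thionins and 4 loci without annotation. These 8 were the only ones in it to average 2 FPKM or more, and the other 34 were all below 0.1 FPKM. Log2 ratios against WT ran from −1.14 to −0.75 in OE15 and from −0.71 to −0.41 in OE20, and the share of the fall present in OE20 ran from 58.0% to 71.3%. The block summed to 1414 and 1442 FPKM in OE15, 1916 and 1917 FPKM in OE20 and 2687 and 2765 FPKM in WT, which was 55.5% and 55.8% of the FPKM of all 93 loci in OE15, 53.8% and 53.1% in OE20 and 49.1% and 48.1% in WT. The expressed loci of the block thus stepped down by similar factors. Thionin genes resemble each other closely, so reads may have been divided among them in ways the files do not show, and the 8 levels are not 8 independent measurements.

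**Figure D5:**
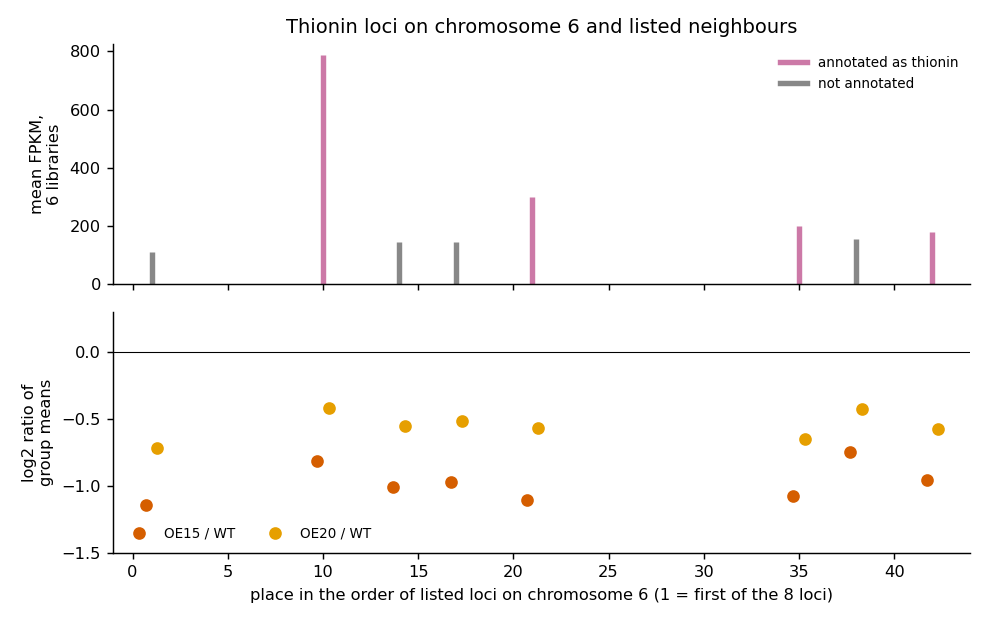
The chromosome 6 block, with loci in the order of their names (horizontal). The upper panel gives the mean FPKM of the 6 libraries and the lower panel the log2 ratio of group means against WT in OE15 and OE20 for the 8 loci, which lie between −1.14 and −0.75 in OE15 and between −0.71 and −0.41 in OE20.

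The 3 loci for wall structure had log2 ratios of −1.29 to −0.87 in OE15 and −0.76 to −0.51 in OE20 against WT. The expansin of LOC_Os10g40720 was at 53.3 and 55.1 FPKM in OE15, 82.0 and 74.7 FPKM in OE20 and 131 and 135 FPKM in WT. The glycine-rich cell wall structural protein of LOC_Os10g31710, one of a class of wall proteins found near vascular tissue, was at 58.2 and 65.6 FPKM in OE15, 90.6 and 92.8 FPKM in OE20 and 151 and 131 FPKM in WT. The WT libraries of the glycine-rich protein were farther apart than those of the expansin. *OsCSLE6* (LOC_Os09g30130), a member of the cellulose synthase-like family, was far less abundant. It had 1.53 and 1.37 FPKM in OE15, 2.101 and 1.68 FPKM in OE20 and 2.76 and 2.72 FPKM in WT, and its OE20 libraries were spread widely enough that the lower lay close to OE15. With a mean of 2.03 FPKM it was also the locus nearest to the lower limit on the mean.

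In the group for lignin and phenolic coupling, the multicopper oxidase domain protein of LOC_Os01g03620, of the family that includes laccases, was at 40.3 and 38.7 FPKM in OE15, 50.7 and 54.5 FPKM in OE20 and 72.4 and 73.4 FPKM in WT. The dirigent protein of LOC_Os07g01600 was at 6.57 and 5.94 FPKM in OE15, 7.87 and 7.93 FPKM in OE20 and 12.8 and 13.9 FPKM in WT. Dirigent proteins steer the coupling of monolignol radicals. Log2 ratios against WT were −0.88 for the oxidase and −1.08 for the dirigent locus in OE15, and −0.47 and −0.75 in OE20.

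Among the other oxidoreductases, the peroxidase of LOC_Os07g48010, of a family that oxidises phenolics with hydrogen peroxide, was at 19.0 and 18.1 FPKM in OE15, 26.8 and 22.5 FPKM in OE20 and 37.2 and 35.2 FPKM in WT. The cytochrome P450 of LOC_Os02g30100, a monooxygenase, was at 2.79 and 3.03 FPKM in OE15, 3.77 and 3.69 FPKM in OE20 and 5.79 and 6.29 FPKM in WT. Both were about equally lower, with log2 ratios in OE15 against WT of −0.96 for the peroxidase and −1.03 for the P450.

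The glutathione group held a transferase and a glutaredoxin. The glutathione S-transferase of LOC_Os09g20220, which joins glutathione to reactive compounds, was at 0.958 and 1.01 FPKM in OE15, 1.48 and 1.53 FPKM in OE20 and 6.23 and 6.27 FPKM in WT. With log2 ratios of −2.55 in OE15 and −1.98 in OE20 against WT, most of its fall was present in both lines. The glutaredoxin of LOC_Os02g40500 (OsGrx_C2.1), which reduces disulfide bonds with glutathione, was at 23.2 and 22.6 FPKM in OE15, 35.3 and 31.9 FPKM in OE20 and 50.5 and 55.5 FPKM in WT. Its fall was more evenly divided, with 64.5% of it present in OE20.

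Transport was represented by 3 loci. The ATPase of LOC_Os07g09420 was at 22.0 and 20.98 FPKM in OE15, 28.6 and 31.7 FPKM in OE20 and 43.7 and 43.7 FPKM in WT. Proteins so named use the energy of ATP, in many cases to move solutes. The antiporter of LOC_Os11g04104, of the major facilitator superfamily of solute carriers, was at 3.66 and 3.75 FPKM in OE15, 4.87 and 4.90 FPKM in OE20 and 9.35 and 9.02 FPKM in WT. The auxin efflux carrier component of LOC_Os08g41720 was at 3.18 and 3.02 FPKM in OE15, 4.09 and 4.50 FPKM in OE20 and 7.21 and 6.72 FPKM in WT. Auxin efflux carriers pump auxin out of cells and so set the direction of its flow. The log2 ratios of these loci against WT ran from −1.29 to −1.02 in OE15 and from −0.90 to −0.53 in OE20.

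Enzymes that add sugar to small molecules were found in 2 loci. The anthocyanin 3-O-beta-glucosyltransferase of LOC_Os01g45110, which adds glucose to anthocyanidins, was at 1.15 and 1.53 FPKM in OE15, 1.61 and 2.14 FPKM in OE20 and 5.82 and 6.39 FPKM in WT. Its OE15 and OE20 libraries nearly met, and both lines lay far below WT. Its name follows that of *OsMYB305* (LOC_Os01g45090) closely on chromosome 1, so it is also a neighbour of the native copy of the overexpressed gene. The UDP-glucosyl transferase of LOC_Os01g41430 was at 1.61 and 1.24 FPKM in OE15, 2.001 and 2.75 FPKM in OE20 and 4.04 and 3.88 FPKM in WT, a log2 ratio of −1.41 in OE15 and −0.71 in OE20 against WT.

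Further annotated loci with steep falls or high levels belonged to none of these groups. Eukaryotic translation initiation factor 6 (LOC_Os01g17330), which takes part in making the large ribosomal subunit, was at 0.614 and 0.376 FPKM in OE15, 0.666 and 0.709 FPKM in OE20 and 9.72 and 10.6 FPKM in WT. Its levels in the lines were near each other and far below WT. The locus annotated as gp176 (LOC_Os02g08330) was at 0.664 and 0.5997 FPKM in OE15, 1.51 and 1.60 FPKM in OE20 and 6.09 and 6.74 FPKM in WT. The gibberellin receptor GID1L2 of LOC_Os03g57640 was at 0.635 and 0.648 FPKM in OE15, 1.07 and 1.29 FPKM in OE20 and 6.49 and 5.23 FPKM in WT. GID1L2 is named for its likeness to the gibberellin receptor GID1. The log2 ratios of OE15 against OE20 were −1.18 for gp176 and −0.79 for GID1L2, wider than the median of the 93 loci. The enzyme of LOC_Os05g39320, which binds thiamine pyrophosphate, a cofactor of decarboxylases and transketolases, was among the most abundant at 157 and 151 FPKM in OE15, 204 and 206 FPKM in OE20 and 306 and 301 FPKM in WT.

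The loci that follow were chosen after their values were seen. The xylem cysteine proteinase 2 of LOC_Os02g48450, of a kind that in *Arabidopsis* digests the contents of maturing xylem cells, was at 5.72 and 5.86 FPKM in OE15, 7.87 and 7.66 FPKM in OE20 and 14.7 and 12.5 FPKM in WT. The pair of GDSL-like lipases had similar levels. LOC_Os02g50000 was at 7.83 and 7.23 FPKM in OE15, 10.2 and 8.91 FPKM in OE20 and 18.2 and 18.1 FPKM in WT. LOC_Os06g14630 was at 5.33 and 5.84 FPKM in OE15, 6.43 and 7.87 FPKM in OE20 and 13.3 and 13.7 FPKM in WT. Each had a log2 ratio of −1.26 in OE15 against WT. The O-methyltransferase of LOC_Os05g43940 was at 1.89 and 2.01 FPKM in OE15, 2.55 and 2.43 FPKM in OE20 and 5.40 and 4.60 FPKM in WT. O-methyltransferases add methyl groups to phenolic compounds among others. The pyridoxal-dependent decarboxylase of LOC_Os04g01690 was at 2.91 and 2.41 FPKM in OE15, 4.18 and 4.63 FPKM in OE20 and 7.42 and 8.37 FPKM in WT, a log2 ratio of −0.71 for OE15 against OE20. The male sterility protein of LOC_Os09g39410 was at 6.15 and 5.50 FPKM in OE15, 6.97 and 7.78 FPKM in OE20 and 16.6 and 18.5 FPKM in WT. The locus app1 (LOC_Os07g04960) was at 6.47 and 7.04 FPKM in OE15, 8.24 and 9.34 FPKM in OE20 and 15.2 and 17.7 FPKM in WT. The glycine and cysteine rich protein GCRP10 (LOC_Os05g28780) was at 4.23 and 4.32 FPKM in OE15, 5.202 and 7.05 FPKM in OE20 and 10.5 and 11.7 FPKM in WT. In these 8 loci the log2 ratio of OE15 against WT lay between −1.57 and −1.22. The other 3 annotated loci were 2 expressed proteins and 1 retrotransposon protein, of which the most abundant, LOC_Os01g32670, was at 14.5 and 13.4 FPKM in OE15, 24.97 and 22.8 FPKM in OE20 and 137 and 148 FPKM in WT.

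The 53 loci without annotation had WT means of 2.72 to 276 FPKM with a median of 10.3 FPKM, where the annotated loci had a median of 17.0 FPKM. Aside from the locus listed at 0, their log2 ratios ran from −6.14 to −0.68 in OE15 and, for all 53, from −4.73 to −0.33 in OE20 against WT. The most abundant of them was at 136 and 143 FPKM in OE15, 209 and 219 FPKM in OE20 and 273 and 280.0 FPKM in WT. The one with the smallest share of its fall in OE20 was at 3.67 and 4.08 FPKM in OE15, 10.3 and 10.6 FPKM in OE20 and 13.6 and 13.2 FPKM in WT, and its OE20 libraries lay nearer to WT than to OE15. In OE15 the locus with the widest change, LOC_Os07g38470, was listed at 0 in both libraries. It was at 3.498 and 3.72 FPKM in OE20 and 8.78 and 14.7 FPKM in WT, so its WT libraries were far apart. LOC_Os09g31019 was at 0.218 and 0.212 FPKM in OE15, 0.418 and 1.06 FPKM in OE20 and 20.8 and 23.3 FPKM in WT, with log2 ratios against WT of −6.14 in OE15 and −4.73 in OE20. It lies next but one to the ubiquitin family locus LOC_Os09g31031, which was also steeply lower. The listed neighbour of the SKP1-like locus on chromosome 7, without annotation, behaved in a like way, at 0.160 and 0.156 FPKM in OE15, 0.306 and 0.554 FPKM in OE20 and 9.93 and 11.2 FPKM in WT. Intermediate levels in OE20 were otherwise usual among the loci without annotation, with a median share of the fall of 59.0%.

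The 93 loci were found on all 12 chromosomes but not in equal shares. As a percentage of the loci on a chromosome that averaged 2 FPKM or more, the share was highest on chromosome 9 (1.03%, 10 loci), chromosome 10 (0.962%, 9 loci) and chromosome 6 (0.804%, 12 loci), and lowest on chromosome 8 (0.252%, 3 loci). Of the 93, 22 (23.7%) had another of the 93 within 5 listed loci on either side, and they formed 9 short stretches. Among the 119 loci that rose by the same rule, 8 (6.72%) had such a neighbour, and among the 26 loci found with the lines exchanged there was none. Within 10 listed loci the counts were 27 of the 93 (29.0%), 16 of the 119 (13.4%) and again none of the 26. These shares are given as a description, since lists of different size differ in how often their loci are neighbours.

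In 7 of the 9 stretches at least 1 locus was annotated. A stretch was cut to run from one of the 93 loci to another. None held a further locus that averaged 2 FPKM or more. That follows largely from the short span, so nothing is read from it about the neighbourhood. On chromosome 10 the glycine-rich wall protein locus was followed by 2 more of the 93. The first, without annotation, was at 72.6 and 77.9 FPKM in OE15, 97.6 and 101 FPKM in OE20 and 131 and 125 FPKM in WT. The second, a retrotransposon locus (LOC_Os10g31730), was at 20.8 and 22.7 FPKM in OE15, 27.2 and 31.8 FPKM in OE20 and 47.2 and 48.8 FPKM in WT. On chromosome 7 the locus after the peroxidase was at 54.4 and 56.7 FPKM in OE15, 71.2 and 69.9 FPKM in OE20 and 90.4 and 87.5 FPKM in WT. On chromosome 5 the locus before the thiamine pyrophosphate enzyme was at 65.2 and 66.7 FPKM in OE15, 89.0 and 92.9 FPKM in OE20 and 115 and 114 FPKM in WT. Adjacent loci with overlapping transcripts can share reads, and neither the strand setting nor the build of the genome is given in the sources used here, so neighbours cannot be taken as separate transcripts.

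The levels of the 93 loci in WT spanned a wide range, with a median of 12.3 FPKM, a lowest mean of 2.72 FPKM and a highest of 1017 FPKM. The median over all 18300 loci was also 12.3 FPKM in WT. In WT 54 of the loci were at 10 FPKM or more, 18 at 100 FPKM or more and 22 under 5 FPKM.

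Replicates of a genotype lay close together for most of the selected loci. The rule favours such loci, since it keeps only those whose libraries do not overlap between genotypes. The spreads and gaps that follow are thus partly made by the selection. They are not set beside those of all loci, so nothing is read from them about how well replicates matched in general. The higher of the 2 libraries was at the median 1.08 times the lower in OE15, 1.09 times in OE20 and 1.08 times in WT. Libraries of which the lower was under 80% of the higher were seen for 18 loci in OE15, 14 in OE20 and 7 in WT. The widest gaps between WT libraries were those of 2 loci without annotation. One was at 0.577 and 1.07 FPKM in OE15, 1.75 and 1.78 FPKM in OE20 and 2.09 and 7.34 FPKM in WT. The other was at 41.2 and 32.8 FPKM in OE15, 72.1 and 88.8 FPKM in OE20 and 134 and 319 FPKM in WT. In both, WT replicate 2 was the high library. The gap between the genotypes, as the lower WT library over the higher OE20 library, had a median of 1.33, and the lower OE20 library over the higher OE15 library had a median of 1.26. Between OE20 and WT the closest libraries were within 10% for 2 loci, and between OE15 and OE20 for 10 loci, so the order of the lines was the narrower step.

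Near the limits of the rule, membership turned on small differences. The WT mean was 1.26 times the OE20 mean in the 2 loci just inside and 1.247 and 1.245 times in the 2 just outside, all without annotation. The OE20 mean was 1.2504 and 1.2517 times the OE15 mean just inside. Just outside were the fasciclin domain protein of LOC_Os05g07060, at 1.2465, and the cytochrome P450 of LOC_Os10g08319, at 1.2464. The mean over the libraries was 2.03 FPKM for *OsCSLE6* and 2.08 FPKM for a locus without annotation just inside, and 1.95 FPKM for the amino acid kinase of LOC_Os01g62900 and 1.94 FPKM for another such locus just outside.

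The study named 13 secondary wall genes. All but *OsMYB48* were listed from the RNA-seq of these libraries and are hence no independent evidence of a direction. *OsMYB48* was named with the RT-qPCR of the study. The rule was met by 3 of the 13, *OsCSLE6*, *OsCSLF8* and *OsBC1*, of which the last 2 were left out by name and are not counted further. Of the other 11, *OsCSLE6* alone was among the 93. In all, 7 of the 11 were ordered OE15 below OE20 below WT, an order met by 5.86% of the 18300 loci, and 6 of these fell short at the OE20 and OE15 step. Of the 10 that were not among the 93, 6 were lower and 2 higher in OE15 than in WT by limma, and 4 were lower in OE20 than in WT. Over all loci tested, 2.59% were called lower in OE15 and 1.64% in OE20 than in WT, while 2.9% were called higher in OE15 than in WT, 1.46% higher in OE20 than in WT and 1.2% higher in OE15 than in OE20. None of the 10 passed both limits as higher in OE20 than in WT, or in OE15 against OE20. In OE20 against WT all 10 had an adjusted p under 0.05 by limma, so those not called missed only the fold limit. Over all loci tested 11.9%, in either direction, had such a p. *OsMYB31* and *OsMYB48* were higher in OE20 than in WT, with log2 fold changes of 0.49 and 0.45. At an unadjusted p under 0.05 by limma 2 were higher in OE20 than in WT, and 3 were lower and 3 higher in OE15 than in OE20. At that limit 15.2% of all loci tested were higher in OE20 than in WT, and 14.0% were lower and 13.5% higher in OE15 than in OE20. *OsCESA9*, for a catalytic subunit of the cellulose synthase that builds secondary walls, was at 36.9 and 37.3 FPKM in OE15, 42.6 and 41.2 FPKM in OE20 and 67.8 and 74.7 FPKM in WT. It was lower by limma in OE15 (log2 fold change −0.94, SE 0.0524, adjusted p = 7.04e-05) and in OE20 (log2 fold change −0.76, SE 0.0524, adjusted p = 0.000288). Both lines thus stood well below WT and near each other. *OsCESA7* and *OsLAC10*, a laccase, were also lower in both lines, as 1.08% of all loci tested were, but the call for *OsCESA7* in OE20 was lost without OE20 replicate 1 (log2 fold change −0.56) or WT replicate 2 (−0.53), or with 1 FPKM added in place of 0.1 (−0.58). *OsMYB31* and *OsMYB48*, MYB transcription factors, were the 2 that were higher in OE15.

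None of the 4 nitrogen genes of the study was among the 93. The transporter genes *OsNRT2.1* and *OsNRT2.2*, for high-affinity nitrate uptake, were higher in OE15 than in WT by limma, although for *OsNRT2.2* the call was lost without WT replicate 1 (log2 fold change 0.57) or with 1 FPKM added (0.58). *OsNRT2.1* was at 9.90 and 9.20 FPKM in OE15, 8.10 and 7.75 FPKM in OE20 and 5.81 and 6.07 FPKM in WT. *OsNRT2.2* was at 13.5 and 13.2 FPKM in OE15, 11.3 and 11.3 FPKM in OE20 and 8.29 and 8.95 FPKM in WT. In both, OE20 was intermediate but the order ran opposite to that of the 93 loci. No nitrogen gene passed both limits in OE20 against WT by limma. *OsNRT2.1*, *OsNRT2.2* and *OsNAR2.1* missed only the fold limit there, with log2 fold changes of 0.41, 0.39 and 0.51 at an adjusted p under 0.05. *OsNAR2.1* also missed it in OE15 against WT (0.49, adjusted p = 0.00029 by limma). In OE20 against WT 11.9% of all loci tested, in either direction, had an adjusted p under 0.05. These 3 genes were higher at an unadjusted p under 0.05, as were 15.2% of all loci tested.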

How the data were processed

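Per the submitters' processing notes the authors used FastQC 0.11.8, Trimmomatic 0.38, HISAT2 2.1.0 and Cufflinks 2.2.1. The values the authors deposited are FPKM. The genome build, strand setting and treatment of multi-mapped reads are not given in the sources used here. FPKM holds no read totals, so no counting interval is given, and a 0 can be a failed estimate. Each file lists 55991 rows, and 4 locus names listed more than once were left out. The loci and gene lists were chosen with earlier results of these data known.

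Where a test is given, log2(FPKM + 0.1) was fitted with limma 3.58.1 (R 4.3.3), all 3 genotypes together and the prior variance following the mean, which left 3 residual degrees of freedom. P-values were adjusted by the Benjamini-Hochberg method over the 20627 loci that averaged 1 FPKM or more, and calls needed more than a 1.5-fold change and an adjusted p below 0.05. The 0.1 added makes fold changes of low loci too small. The fit was tried on simulated data with independent noise and changes of equal size in both lines. That trial thus says nothing about differences between the lines or about libraries that are technical repeats.

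Annotations came from the study's list of changed loci, and groups from words in them. Genes named were *OsMYB305*, the study's secondary wall and nitrogen genes, among the 37 loci whose annotation names a kind of protein the 8 with the largest falls in OE15 and the 5 with the highest WT means, up to 4 per group by WT mean, annotated loci within 5 listed loci of another, those nearest to each limit and 2 loci without annotation. Alternatives were other limits of the rule, pseudocounts, scalings and minimum levels, a fit without trend, calls by p alone, a replicate block and leaving out each library in turn.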

Additional observations from a re-analysis of the deposited data

Results flagged for a closer look

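Differences between the lines, tested by limma in OE15 against OE20 at an adjusted p under 0.05 without a limit on the fold change, were seen for 3 of the 17 genes outside the 93 loci that belong to the secondary wall and nitrogen lists or are the chloroplast transcripts. Over all 20627 loci tested, 2387 (11.6%) differed in this way. *OsCESA4* was lower in OE15 than in OE20 (log2 fold change −0.22, SE 0.036, adjusted p = 0.0107 by limma), with log2 fold changes against WT of −0.79 in OE15 and −0.56 in OE20. *OsCESA7* was likewise lower (−0.23, SE 0.048, adjusted p = 0.0265 by limma), with −0.82 in OE15 and −0.59 in OE20 against WT. The photosystem II polypeptide locus LOC_Os07g05360 was higher in OE15 than in OE20 (0.28, SE 0.060, adjusted p = 0.0283 by limma), with −1.05 in OE15 and −1.33 in OE20 against WT.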

How the results depend on the processing

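The number of loci that met the rule was 56 with a minimum mean of 5 FPKM, all among the 93, 16 with a ratio of 1.5 at each step and 1071 with no limit on the ratios. Leaving out each library in turn gave 97 to 119 loci, of which 74 to 87 were among the 93. The count of the 93 called lower by limma in OE15 against WT was 56 with a minimum of 5 FPKM, beside 258 of all 14313 loci tested. In OE20 against WT it was 23 with a minimum of 5 FPKM, beside 168 of all 14313. With no limit on the fold change it was 68 there, beside 1128 of all 20627. In OE15 against OE20 it was 11 with no minimum, beside 168 of all 33842. With no limit on the fold change it was 54 there, beside 1263 of all 20627. The counts over all loci thus moved with the settings too, and the rule used each contrast, so nothing is read from those of the 93. In both lines against WT, the secondary wall list had 10 calls and the nitrogen list 3 with no limit on the fold change, where the counts were 3 and 0 with it, and the secondary wall list had 2 to 4 without each library. Medians over the 93 loci without each library ran from −1.12 to −1.03 in OE15 against WT, −0.59 to −0.56 in OE20 against WT and −0.49 to −0.46 in OE15 against OE20. *OsNIR2*, which no setting called, changed sign with single libraries left out, with log2 fold changes from −0.071 (without WT replicate 1) to 0.14 (without WT replicate 2) in OE15 against WT and from −0.13 to 0.085 in OE20 against WT, where those without OE20 replicate 1 (0.0099) or WT replicate 2 (0.085) and that with quantile normalization (0.027) were positive. The cause of these changes was not tested beyond the fewer loci or libraries that a setting leaves.

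Same-numbered libraries showed no broad shared deviation, with correlations across loci of 0.023 (OE15 and WT), 0.031 (OE20 and WT) and −0.069 (OE15 and OE20). Whether they shared a culture or a batch is not stated in the sources used here. With the replicate block, limma called 93 of the 93 loci lower in OE15 against WT, 41 in OE20 against WT and 18 in OE15 against OE20. Of all 20627 loci tested, 533, 333 and 176 were called lower in these contrasts. The rule used each contrast, so nothing is read from the counts of the 93. In both lines against WT, 3 loci of the secondary wall list and 0 of the nitrogen list were called with the block. For the named genes, 1413 of 1476 alternatives left the call as it was, 25 lost it, 34 gained it and 4 changed the sign. Of the 50 named genes, 29 were among the 93, which the rule chose for libraries that do not overlap, and some were named for large falls. This tally is thus partly made by the selection and is no measure of how robust calls are in general.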
